A study of Homo sapiens with 9 samples.

Results

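The genes described here encode the core of the Notch pathway. They are the receptors NOTCH1, NOTCH2 and NOTCH3, the ligands JAG1, JAG2 and DLL1, the DNA-binding factor RBPJ, its coactivator MAML1, and the target genes HES1 and HEY1. These 10 genes were found by symbol among the 60605 genes of the deposited table, with 1 row each. They were followed in TE13, an established human esophageal squamous cell carcinoma (ESCC) line. Cells had received a control siRNA or 1 of 2 siRNAs against PARylator, named siRNA.1 and siRNA.2, in 3 biological replicates each and 9 libraries in all. PARylator is the lncRNA LINC00885. The groups share the cell line and a transfection with siRNA. There is 1 control siRNA and no untransfected group, so each comparison with control is against that siRNA.

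Notch signaling passes between neighboring cells. A ligand on one cell binds a receptor on the next, ADAM proteases and gamma-secretase then cut the receptor, and its intracellular part moves to the nucleus, where it joins RBPJ and a Mastermind coactivator and switches on genes such as HES1 and HEY1. Without that fragment, RBPJ recruits corepressors to the same genes. In the squamous epithelium of the esophagus, Notch signaling is known for its part in the exit of basal cells into differentiation, and NOTCH1 is often mutated in ESCC.

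HES1 is the pathway's best known target, and the window around its start is shown because RBPJ binds the letters GTGGGAA or its core TGGGAA in promoters of this family. HES4, a relative of HES1 that moved the opposite way in these cells, is shown beside it and was chosen after its values were seen. The sequences are RefSeq promoters of GRCh38.p14, from 250 bases before to 50 bases after the gene start, 5′ to 3′ on the strand of the gene, and capitals mark TGGGAA. The HES1 window is chr3:194135898-194136197 on the plus strand, and the HES4 window is chr1:1000048-1000347 on the minus strand.
HES1: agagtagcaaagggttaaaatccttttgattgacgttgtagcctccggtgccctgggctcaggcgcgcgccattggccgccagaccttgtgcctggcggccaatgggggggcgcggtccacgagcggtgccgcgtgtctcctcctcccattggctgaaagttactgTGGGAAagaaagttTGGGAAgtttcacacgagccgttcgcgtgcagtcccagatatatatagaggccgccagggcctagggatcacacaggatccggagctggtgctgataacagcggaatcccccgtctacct
HES4: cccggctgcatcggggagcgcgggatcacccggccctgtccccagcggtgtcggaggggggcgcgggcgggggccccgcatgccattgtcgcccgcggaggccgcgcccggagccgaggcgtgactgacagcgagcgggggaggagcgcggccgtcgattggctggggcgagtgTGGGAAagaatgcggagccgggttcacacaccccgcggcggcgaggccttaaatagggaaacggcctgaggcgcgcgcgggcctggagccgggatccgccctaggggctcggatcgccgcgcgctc

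The HES1 window held 2 copies of TGGGAA in the same orientation, with first bases at -84 and -70 from the gene start, and the first copy was part of GTGGGAA. The HES4 window held a single TGGGAA at -76, also within GTGGGAA. Searched on both strands in 35116 promoter windows of this length, TGGGAA was present in 24.0% and GTGGGAA, which contains it, in 6.25%. At least 2 copies of TGGGAA were present in 3.80%. HES1 also held 4 copies of CACNAG, the N box that HES proteins bind, a motif present in 38.0% of windows. RefSeq windows were matched for 8 of the 10 Notch genes, all but DLL1 and HEY1, and the 7 others held no TGGGAA. The motif was not particular to HES1 and HES4 among related genes. HES5, HEY2 and HEYL held 2 copies of TGGGAA each, and HES2, HES6, HES7 and the Notch target NRARP held none. These matches describe letters in a window and not binding in TE13 cells.

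The libraries held between 15337917 and 22559998 counts on genes. Counts of the targeted LINC00885 were 6, 7 and 12 in the control group, 4, 5 and 2 after siRNA.1, and 2, 0 and 4 after siRNA.2. Every siRNA library was below every control library, but the difference did not pass the test at these counts (log2 fold changes -1.21 and -2.33, edgeR adjusted p = 0.376 and 0.0659). A lncRNA on the opposite strand covers 33.0% of the exonic length of LINC00885, and since the counting is not stated to use strand, reads of both cannot be told apart. Replicate libraries were not copies of each other: their counts differed beyond sampling noise (chi-square over degrees of freedom at least 2.76). Each was counted as 1 sample. That comparison cannot show that they came from separate cultures, since it measures only differences beyond the sampling of counts. The squamous label matched the data, since 10 of 10 squamous markers had a mean of at least 1 FPKM in every condition. Their summed level was between 805.73 and 824.64 FPKM in the control libraries, between 790.11 and 805.82 with siRNA.1 and between 755.93 and 781.56 with siRNA.2. The 6 endothelial markers, none at a mean of 1 FPKM, summed to between 1.20 and 1.56 FPKM in the control libraries, where KDR and TEK were listed at 0, and to at most 1.00 with siRNA.1 and 0.57 with siRNA.2. The 6 fibroblast markers summed to between 2.23 and 2.49 FPKM with control siRNA and to at most 1.72 in the other libraries, and the 6 blood cell markers to between 5.06 and 5.25 and to at most 4.35. The blood cell sum was mostly LAPTM5, at least 4.83 FPKM in the control libraries and at most 3.45 in the others. PTPRC, which defines blood cells, went the other way, from at most 0.05 FPKM to between 0.11 and 0.22, as did CD14, from at most 0.07 to between 0.13 and 0.46, and MS4A1 was listed at 0 throughout. Mitochondrial genes took 7.46 to 7.66% of counts in the control group, 4.99 to 5.06% after siRNA.1 and 5.54 to 5.56% after siRNA.2. The part of these levels in the results below was not tested. FPKM, the count per kilobase of exonic length scaled to the total count of the library, is the scale of all levels given here. Differences are log2 fold changes from edgeR's quasi-likelihood test on the counts, fitted to the 21395 genes that averaged 0.1 FPKM or more. The adjusted p is over all of those genes, and a gene passed when it was under 0.05.

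NOTCH1, NOTCH3, DLL1 and HES1 were lower with both PARylator siRNAs, JAG2 was higher with both, and JAG1 fell with siRNA.1 and rose with siRNA.2. NOTCH2 passed as lower with both as well, but its libraries overlapped with those of control. The calls of NOTCH2, and that of DLL1 with siRNA.1, did not hold under every alternative fit. With siRNA.1, 7 of the 9 Notch genes tested passed, 6 of them lower and 1 higher, against a background of 30.3% of all genes tested (15.2% lower, 15.0% higher). With siRNA.2, 7 of 9 passed as well, 5 lower and 2 higher, against 30.9% (15.1% lower, 15.8% higher). The libraries of the compared conditions did not overlap for 7 Notch genes with siRNA.1, 5 lower and 2 higher, where this held for 37.7% of all genes tested (17.0% lower, 20.7% higher). With siRNA.2 they did not overlap for 7, 4 lower and 3 higher, against 39.6% (18.5% lower, 21.1% higher). Genes with many counts passed more often. Among genes averaging 500 counts or more, as all 9 did, the background was 54.6% for siRNA.1 and 56.0% for siRNA.2. Both siRNAs moved 6 of the 9 genes the same way, 5 lower and 1 higher. The share over all genes tested was 21.2% (10.2% lower, 11.1% higher), and it was not computed for genes averaging 500 counts or more. Both comparisons use the same control libraries. For the 9 Notch genes the median log2 fold change came to -0.27 for siRNA.1 and -0.12 for siRNA.2, beside -0.00056 and 0.0040 over all genes tested. HEY1 was below the filter and was not tested.

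In the control libraries the 10 genes spanned a wide range of levels per length. HES1 was highest at 19.7 ± 1.07 FPKM (SD, n = 3), above 91.6% of the 28065 genes detected in those libraries. JAG1 (13.8), NOTCH2 (13.4) and JAG2 (12.4) followed, and their libraries overlapped from each to the next. MAML1 (9.37) and DLL1 (9.27) overlapped with each other, while NOTCH3 (8.15), NOTCH1 (6.48) and RBPJ (4.12) each stood apart from the next gene in the order. HEY1 was last at 0.0567 FPKM. With the PARylator siRNAs the order changed: JAG2 was level with HES1 with siRNA.1, JAG1 was the highest gene with siRNA.2, and NOTCH3 fell below RBPJ with both. The level of NOTCH2 rests on a deposited exonic length of 19930 bases, where GENCODE release 44 gives 16744. That of RBPJ rests on 10796 bases against 15311, so the rank of both genes depends on the annotation. The length cancels in their changes between conditions, but reads were not recounted over the other set of exons.

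NOTCH3 showed the largest change among the Notch genes tested. NOTCH3 (ENSG00000074181, chromosome 19, 15159038 to 15200995, minus strand) is a receptor with a shorter intracellular domain than NOTCH1. It was at 8.35, 8.43 and 7.68 FPKM in the control libraries, 4.24, 4.27 and 3.86 with siRNA.1, and 3.89, 3.72 and 3.78 with siRNA.2. Every PARylator siRNA library was below every control library. The log2 fold change was -1.01 with siRNA.1 (SE 0.07, edgeR adjusted p = 2.46e-43) and -1.11 with siRNA.2 (SE 0.07, edgeR adjusted p = 1.61e-53). The ratio to control was 0.496 and 0.462. Of all genes tested, 7.22% had a log2 fold change as low or lower with siRNA.1 and 6.49% with siRNA.2. The siRNAs differed by -0.10, with a 95% interval from -0.25 to 0.04. These are bulk libraries, in which fewer cells with a transcript and less of it per cell cannot be told apart.

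NOTCH1 (ENSG00000148400, chromosome 9, 136494433 to 136546048, minus strand) was at 7.08, 6.12 and 6.23 FPKM in the control libraries. It was at 4.58, 5.27 and 4.51 with siRNA.1, and at 5.19, 4.22 and 4.54 with siRNA.2. No PARylator siRNA library reached the lowest control library. The log2 fold changes of NOTCH1 were -0.46 with siRNA.1 (SE 0.06, edgeR adjusted p = 8.47e-12) and -0.49 with siRNA.2 (SE 0.06, edgeR adjusted p = 2.51e-13). The ratio to control was 0.725 and 0.713.

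NOTCH2 (ENSG00000134250, chromosome 1, 119911553 to 120100779, minus strand), the most abundant of the receptors per length, moved least. Its levels were 14.52, 13.32 and 12.35 FPKM with control siRNA, 10.93, 13.33 and 11.82 with siRNA.1, and 12.53, 12 and 12.65 with siRNA.2. The conditions overlapped. NOTCH2 had log2 fold changes of -0.18 with siRNA.1 (SE 0.04, edgeR adjusted p = 0.000268) and -0.12 with siRNA.2 (SE 0.04, edgeR adjusted p = 0.0214). The fall with siRNA.1 was not called by limma on FPKM (adjusted p of at least 0.25). With siRNA.2 it was lost in DESeq2 (adjusted p = 0.0741), in limma, without the filter on low values, without control replicate 1 (log2 fold change -0.06, edgeR adjusted p = 0.408) and without siRNA.2 replicate 2. NOTCH2 shares near-identical exons with the NOTCH2NL genes, so its reads are uncertain, but the 4 NOTCH2NL rows together held between 133 and 213 counts in a library against 3870 to 5686 for NOTCH2.

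Summed over the 3 receptors, the level was between 26.26 and 29.95 FPKM in the control libraries, between 19.75 and 22.87 with siRNA.1, and between 19.94 and 21.61 with siRNA.2. NOTCH3 made up 29.1% ± 1.19 of that sum (SD, n = 3) in the control group, 19.8% ± 1.50 after siRNA.1 and 18.2% ± 0.371 after siRNA.2. NOTCH2 went from 47.8% ± 0.726 of the sum to 57.4% ± 1.78 and 59.5% ± 1.31 (SD, n = 3). The share of NOTCH1 was 23.1%, 22.9% and 22.3%, with overlapping libraries. No test was run on these sums and shares.

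Among the ligands, JAG1 was the gene on which the siRNAs differed most. JAG1 (ENSG00000101384, chromosome 20, 10637684 to 10673999, minus strand) encodes Jagged 1, a ligand of all 3 receptors. It was at 13.34, 13.84 and 14.10 FPKM in the control libraries, 11.07, 11.82 and 12.06 with siRNA.1, and 20.41, 19.58 and 20.58 with siRNA.2. The 3 conditions did not overlap, with siRNA.1 lowest and siRNA.2 highest. The log2 fold change of JAG1 was -0.27 with siRNA.1 (SE 0.05, edgeR adjusted p = 2.41e-06) and 0.54 with siRNA.2 (SE 0.05, edgeR adjusted p = 4.34e-25). Tested directly, JAG1 was 1.75-fold higher with siRNA.2 than with siRNA.1 (log2 difference 0.81, SE 0.05, edgeR adjusted p = 1.31e-53). Of all genes tested, 0.355% passed in opposite directions with the siRNAs. Exons of a lncRNA on the opposite strand cover 3.29% of the exonic length of JAG1, and the counting is not stated to use strand.

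JAG2 (ENSG00000184916, chromosome 14, 105140982 to 105168824, minus strand), the other Jagged ligand, was at 11.96, 12.21 and 12.88 FPKM with control siRNA. It was at 16.78, 16.26 and 15.30 with siRNA.1 and at 15.23, 16.53 and 16.27 with siRNA.2, above every control library. JAG2 rose by a log2 fold change of 0.36 with each siRNA (SE 0.06, edgeR adjusted p = 9.57e-09 and 2.66e-09). The siRNAs differed by 0.0078, with a 95% interval from -0.10 to 0.12. A lncRNA on the same strand shares 7.33% of the exonic length of JAG2.

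DLL1 (ENSG00000198719, chromosome 6, 170282206 to 170306565, minus strand), a ligand of the Delta kind, was at 9.80, 8.67 and 9.35 FPKM in the control libraries. Its levels were 8.62, 6.68 and 7.84 with siRNA.1 and 6.57, 7.29 and 7.36 with siRNA.2, and the highest siRNA.1 library was just below the lowest control library. DLL1 fell by 0.29 with siRNA.1 (SE 0.09, edgeR adjusted p = 0.00472) and by 0.40 with siRNA.2 (SE 0.09, edgeR adjusted p = 3.13e-05) on the log2 scale. Without siRNA.1 replicate 2 the log2 fold change with siRNA.1 was -0.19 (edgeR adjusted p = 0.131), and limma did not call it (adjusted p of at least 0.0938). FAM120B, on the opposite strand, overlaps 9.69% of the exonic length of DLL1.

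The ligands summed to between 34.72 and 36.33 FPKM with control siRNA, between 34.76 and 36.47 with siRNA.1 and between 42.21 and 44.21 with siRNA.2. The ratio of JAG1 to JAG2 was 1.11 ± 0.0194 in the control libraries (SD, n = 3), 0.725 ± 0.0643 with siRNA.1 and 1.26 ± 0.0778 with siRNA.2. DLL1 took 26.2% ± 1.53 of the ligand sum in the control group, 21.7% ± 2.26 after siRNA.1 and 16.3% ± 0.672 after siRNA.2 (SD, n = 3). Set against the receptor sum, the ligand sum was 1.27 ± 0.107 times as large in the control libraries, 1.70 ± 0.167 times with siRNA.1 and 2.08 ± 0.114 times with siRNA.2 (SD, n = 3). These ratios were not tested, and those to the receptor sum rest on the deposited exonic length of NOTCH2.

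**Figure D1:**
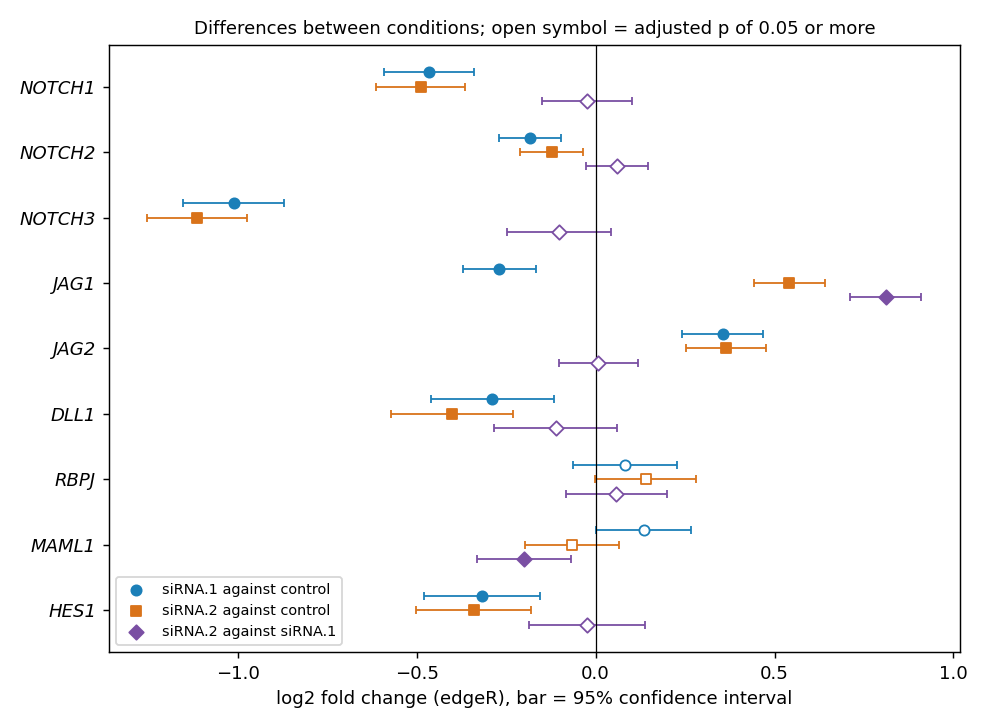
Log2 fold change of the 9 Notch genes tested, with its 95% confidence interval, for siRNA.1 against control (circles), siRNA.2 against control (squares) and siRNA.2 against siRNA.1 (diamonds), filled where the adjusted p was under 0.05. NOTCH3 was near -1 with both siRNAs, and JAG1 (-0.27 and 0.54) was on opposite sides of 0.

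RBPJ and MAML1, which form the nuclear complex with the cut receptor, did not pass in either comparison with control. RBPJ (ENSG00000168214, chromosome 4, 26163455 to 26435131, plus strand) was at 4.12, 3.95 and 4.30 FPKM in the control libraries, 4.29, 4.55 and 4.51 with siRNA.1, and 4.54, 4.44 and 4.76 with siRNA.2. The siRNA.2 libraries were all slightly above the control libraries, and those of siRNA.1 overlapped with them. Its log2 fold changes were 0.08 with siRNA.1 (95% interval -0.06 to 0.23) and 0.14 with siRNA.2 (95% interval -0.0027 to 0.28). The 4 RBPJ pseudogenes in the table had 0 counts in every library, and how reads shared with them were counted is not stated.

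MAML1 (ENSG00000161021, chromosome 5, 179732822 to 179777283, plus strand) was at 9.43, 9.78 and 8.89 FPKM with control siRNA, 10.79, 10.50 and 10.12 with siRNA.1, and 8.67, 9.24 and 9.12 with siRNA.2. The siRNA.1 libraries were above all others. MAML1 had log2 fold changes of 0.13 with siRNA.1 (edgeR adjusted p = 0.129) and -0.07 with siRNA.2 (edgeR adjusted p = 0.526). Between the siRNAs it differed by -0.20 (SE 0.07, edgeR adjusted p = 0.0267), a call that was lost in limma (adjusted p of at least 0.0807), without siRNA.1 replicate 1 (log2 difference -0.17, adjusted p = 0.118), without siRNA.2 replicate 1 (-0.16, adjusted p = 0.167) and without siRNA.2 replicate 3 (-0.22, edgeR adjusted p = 0.0568). JAG1 and MAML1 were the 2 of 9 Notch genes that differed between the siRNAs, 1 higher and 1 lower, where 12.2% of all genes tested did (6.1% higher, 6.06% lower). Among genes averaging 500 counts or more the share was 26.8%. Their libraries did not overlap either, as for 24.4% of all genes tested (11.3% higher, 13.1% lower). That background count was 2603 genes, 50.2% of them higher with siRNA.2, while limma on log2(FPKM + 0.1) called 607, 34.3% of them higher.

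HES1, a transcriptional repressor and the canonical readout of Notch signaling, was lower with both siRNAs. HES1 (ENSG00000114315, chromosome 3, 194136148 to 194138732, plus strand) was at 19.51, 18.76 and 20.87 FPKM in the control libraries, 16.82, 15.86 and 15.74 with siRNA.1, and 16.04, 15.85 and 15.22 with siRNA.2. All 6 PARylator siRNA libraries were below the control libraries. HES1 fell by 0.32 with siRNA.1 (SE 0.08, edgeR adjusted p = 0.000764) and by 0.34 with siRNA.2 (SE 0.08, edgeR adjusted p = 0.000185) on the log2 scale, a ratio to control of 0.803 and 0.790. Between the siRNAs the difference was -0.02, with a 95% interval from -0.19 to 0.14. HES1 and LINC00885 are on the same strand of distal chromosome 3q, 2.00 megabases apart in the deposited coordinates.

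HEY1 (ENSG00000164683, chromosome 8), the other target, was hardly detected. Its counts were 1, 11 and 3 in the control group, 0, 1 and 5 after siRNA.1, and 10, 2 and 1 after siRNA.2. The conditions overlapped, and a difference in HEY1 was not detectable at this depth.

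The 7 other HES and HEY genes and NRARP, a Notch-induced feedback inhibitor, did not move together with HES1. Of these 8 genes 6 were tested. With siRNA.1 3 were higher and 1 lower (66.7%, against 30.3% of all genes tested), and with siRNA.2 2 were higher and 1 lower (3 of 6, against 30.9%). HES7, known from the segmentation clock, averaged 5.98 ± 0.679 FPKM in the control group (SD, n = 3), 13.8 ± 0.699 after siRNA.1 and 14.97 ± 1.27 after siRNA.2. Its fold changes on the log2 scale were 1.17 (edgeR adjusted p = 3.04e-25) and 1.31 (edgeR adjusted p = 1.58e-32). HES4 averaged 14.7 ± 1.88, 23.3 ± 2.71 and 24.6 ± 3.12 FPKM in the same order (SD, n = 3), log2 fold changes of 0.64 (edgeR adjusted p = 5.72e-09) and 0.74 (edgeR adjusted p = 4.22e-12). HES4 and HES7 were thus higher in the libraries where HES1 was lower. HES2 was lower, at 4.80 ± 0.245, 3.17 ± 0.174 and 2.86 ± 0.395 FPKM in that order (SD, n = 3), log2 fold changes of -0.62 (edgeR adjusted p = 6.12e-08) and -0.76 (edgeR adjusted p = 1.16e-11). NRARP passed with siRNA.1 (log2 fold change 0.34, edgeR adjusted p = 8.54e-06) and not with siRNA.2 (0.12, adjusted p = 0.192), and the siRNAs differed by -0.22 (edgeR adjusted p = 0.0141). HES6 and HEYL did not pass, HES5 was listed at 0 in every library, and HEY2 was under the filter.

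Enzymes that put sugars on the receptors moved in both directions. POFUT1 and POGLUT1, which attach O-fucose and O-glucose to the extracellular repeats of Notch, rose with both siRNAs, and the Fringe enzymes LFNG and MFNG, which extend the O-fucose, fell with both. LFNG averaged 3.43 ± 0.306 FPKM in the control group (SD, n = 3), 1.52 ± 0.318 after siRNA.1 and 1.48 ± 0.0252 after siRNA.2. On the log2 scale it changed by -1.20 (SE 0.16, edgeR adjusted p = 5.21e-12) and -1.22 (SE 0.16, edgeR adjusted p = 5.23e-13), close to those of NOTCH3. MFNG fell by 0.68 (edgeR adjusted p = 0.000552) and by 0.74 (edgeR adjusted p = 9.15e-05) on the log2 scale. The other Fringe enzyme, RFNG, did not pass with either siRNA. POFUT1 averaged 17.6 ± 0.601, 23.6 ± 1.66 and 26.3 ± 0.696 FPKM in that order (SD, n = 3), log2 fold changes of 0.39 (edgeR adjusted p = 4.58e-13) and 0.57 (edgeR adjusted p = 5.74e-27), and POGLUT1 had 0.39 (edgeR adjusted p = 0.00136) and 0.71 (edgeR adjusted p = 1.77e-10). In all, 5 of the 6 enzymes passed with siRNA.1 (83.3%, against 30.3% of all genes tested) and 4 with siRNA.2 (66.7%, against 30.9%).

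Of 9 genes of the proteases that cut Notch, 1 was higher and 3 lower with siRNA.1 (44.4%, against 30.3% of all genes tested). With siRNA.2, 1 was lower (11.1%, against 30.9%). Among the 6 averaging 500 counts or more, 3 passed with siRNA.1 and 1 with siRNA.2. Both shares were below the 54.6% and 56.0% of all genes at that depth. The gamma-secretase subunit APH1A fell with both, with log2 fold changes of -0.18 (edgeR adjusted p = 0.000314) and -0.12 (edgeR adjusted p = 0.0334). Its relative APH1B fell by 0.68 with siRNA.1 (edgeR adjusted p = 0.0448) and the sheddase ADAM10 by 0.16 (edgeR adjusted p = 0.000632) on the log2 scale. With siRNA.2 neither passed, at -0.16 and -0.02. The difference between the siRNAs passed for ADAM10 (0.14, edgeR adjusted p = 0.00646) and not for APH1B (edgeR adjusted p = 0.244). FURIN, which cuts the receptor precursor in the Golgi, was higher with siRNA.1 (log2 fold change 0.39, edgeR adjusted p = 3.53e-13), was at 0.0080 with siRNA.2 (edgeR adjusted p = 0.941), and differed between them by -0.38 (edgeR adjusted p = 3.26e-12). The gamma-secretase subunit NCSTN did not pass in either comparison. APH1B, ADAM10, FURIN and NCSTN were named after their values were seen.

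Among 14 genes of ubiquitination and trafficking, 3 were higher and 5 lower with each siRNA. That was 57.1% of the list, against 30.3% and 30.9% of all genes tested. Of the 6 averaging 500 counts or more, 5 passed with each siRNA (83.3%), against 54.6% and 56.0% of all genes at that depth. DTX3L, a Deltex family ligase that is also an interferon-induced partner of PARP9, averaged 26.6 ± 1.12 FPKM in the control group (SD, n = 3), 45.6 ± 1.51 after siRNA.1 and 42.3 ± 1.61 after siRNA.2. The log2 fold changes of DTX3L were 0.75 (edgeR adjusted p = 1.17e-55) and 0.65 (edgeR adjusted p = 3.60e-43). Its relatives DTX4 (-0.50 and -0.68) and DTX2 (-0.33 and -0.44) fell with both siRNAs, as did AAK1, a kinase of the endocytic machinery (-0.71 and -0.82). The adjusted p of these 3 genes was at most 0.00123 in edgeR.

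Of 9 further coactivators, 1 was higher and 1 lower with siRNA.1 (22.2%, against 30.3% of all genes tested). With siRNA.2, 3 were higher and 2 lower (55.6%, against 30.9%). Among the 7 averaging 500 counts or more, 1 passed with siRNA.1 (14.3%) and 4 with siRNA.2 (57.1%). The shares of all genes at that depth were 54.6% and 56.0%. CDK8 was higher with both siRNAs (log2 fold changes 0.46 and 0.34, edgeR adjusted p = 1.75e-09 and 1.24e-05) and the acetyltransferase KAT2B lower with both (-0.63 and -0.95, edgeR adjusted p = 0.00104 and 1.56e-07). Passing with siRNA.2 and not with siRNA.1, SNW1 (0.18, edgeR adjusted p = 0.00225) and the acetyltransferase KAT2A (0.24, edgeR adjusted p = 0.00816) were higher and the acetyltransferase EP300 (-0.17, edgeR adjusted p = 0.00279) was lower, and their difference between the siRNAs did not pass. MAML2 and MAML3 did not pass. Of 17 corepressors, 4 were higher and 2 lower with siRNA.1, and 2 were higher and 2 lower with siRNA.2. These shares, 35.3% and 23.5%, stand beside 30.3% and 30.9% of all genes tested. Of the 14 corepressors averaging 500 counts or more, 5 passed with siRNA.1 (35.7%) and 4 with siRNA.2 (28.6%). Both shares were below the 54.6% and 56.0% of all genes at that depth. CIR1 (0.41 and 0.35) and TLE1 (0.24 and 0.17) rose with both, and the histone demethylase KDM1A fell with both (-0.47 and -0.29), all with an adjusted p of at most 0.0199 in edgeR. The scaffolds SPEN and NCOR1 did not pass. Of 5 other receptors and ligands, NOTCH4 and DLK1 were under the filter and 3 were tested. With siRNA.1, DLL4 was higher and DLK2 lower (log2 fold changes 0.86 and -0.55, edgeR adjusted p = 0.0156 and 0.0247). That was 66.7%, against 30.3% of all genes tested, and none passed with siRNA.2, against 30.9%. Their difference between the siRNAs did not pass (edgeR adjusted p = 0.387 and 0.405). DLL4 averaged only 0.363 FPKM in the control group and 0.673 after siRNA.1, and the DLK2 libraries of these conditions overlapped.

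Over all 68 other genes of the pathway, 64 were tested. With siRNA.1, 15 were higher and 16 lower, 48.4% of those tested against the background of 30.3%, and with siRNA.2, 12 were higher and 13 lower, 39.1% against 30.9%. Among the 35 of them that averaged 500 counts or more, 16 passed with siRNA.1 (45.7%) and 15 with siRNA.2 (42.9%), below the 54.6% and 56.0% of all genes at that depth. Their median log2 fold change was 0.02 with each siRNA. Of the 64 tested, both siRNAs raised 9 and lowered 11, and none passed in opposite directions. Over all genes tested, 11.1% were higher with both, 10.2% lower with both, and 0.355% passed in opposite directions. These shares were not computed for genes averaging 500 counts or more.

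Since NOTCH3 passed with both siRNAs in 1 direction at a log2 fold change of at least 0.5, the genes with the most similar profile were sought over the 9 libraries among 7150 genes averaging 5 FPKM or more. Likeness was the root-mean-square difference in log2(FPKM + 0.1), centered on the control mean. The nearest were BCAM, a laminin receptor (0.0740), MSMO1, an enzyme of cholesterol synthesis (0.0757), and VSIR, an immune checkpoint protein (0.0830). BCAM had log2 fold changes of -0.92 and -1.10, MSMO1 of -0.98 and -1.09, and VSIR of -1.06 and -1.09.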

How the data were processed

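RNA-seq was performed on poly(A)+ RNA of TE13 cells in 9 libraries, 3 per condition. According to the study's methods and the submitters' processing notes, reads were checked with FastQC, aligned to GRCh38 with STAR and counted per gene with featureCounts, and versions, annotation release and strand setting are not given in the sources used here. The table the authors deposited gives unnormalized counts and FPKM side by side, and 100% of FPKM values followed from count, exonic length and library total. No column of per-library values was left unused. Total counts were 15337917 to 22559998 per library.

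Counts were tested with edgeR 4.0.16 in R 4.3.3 (glmQLFit, glmQLFTest, TMM factors from the genes tested) with all 9 libraries in 1 model and no covariate. Tested were 21395 genes averaging 0.1 FPKM or more, p-values were adjusted by Benjamini-Hochberg, and 0.05 was the threshold. The SE was taken from the fold change and its F statistic, and intervals are 95%. limma 3.58.1 on log2(FPKM + 0.1) and DESeq2 1.42.0, the tool the study names, were alternatives, with other pseudocounts, filters, scaling, a fit of 2 conditions only, a replicate block and each library left out. Scripts were tested on simulated data. The Notch genes and lists were chosen with earlier results of these data known. Named are all 10 Notch genes, in each list up to 4 genes that moved most on average and passed in 1 direction with both siRNAs and averaged 1 FPKM or more, and the 3 nearest profiles. FURIN, NRARP and other genes outside this rule were named after their values were seen. Gene positions and exon overlaps come from the table and GENCODE release 44, and promoters from RefSeq (GRCh38.p14). Values of 1 pathway gene are not reported here.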

Additional observations from a re-analysis of the deposited data

Results flagged for a closer look

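These genes differed between the siRNAs by the test of the difference itself, siRNA.2 against siRNA.1, in edgeR. JAG1 was higher with siRNA.2 by 0.81 on the log2 scale (adjusted p = 1.31e-53), and it was higher in 3 of 3 siRNA.2 libraries than in every siRNA.1 library. Over the alternatives the JAG1 difference stayed between 0.74 and 0.84. MAML1 was lower with siRNA.2, with a difference of -0.20 (adjusted p = 0.0267 from edgeR, up to 0.167 over the alternatives). POFUT1 was higher with siRNA.2 by 0.17 (adjusted p = 0.00754 from edgeR), POGLUT1 by 0.31 (adjusted p = 0.0193 from edgeR) and KDM1A by 0.18 (adjusted p = 0.00147 from edgeR). Why these genes differed was not tested.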

How the results depend on the processing

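Under 18 alternatives per comparison, NOTCH1, NOTCH3, JAG1, JAG2 and HES1 kept their direction and an adjusted p under 0.05 with both siRNAs against control, NOTCH3 between -1.15 and -0.84 in log2 fold change. Of 486 fold changes of Notch genes under alternatives, 452 kept direction and side of the threshold, 20 lost the call and 1 gained it. The 13 that changed sign were all differences between the siRNAs near 0. JAG2 was at -0.0027 with DESeq2 and with DESeq2 size factors in edgeR, -0.0091, -0.0086 and -0.0091 with limma at pseudocounts of 0.1, 1 and 0.01, and -0.0012 with a filter at 1 FPKM. Without a library, it ranged from -0.0275 to 0.0533, HES1 from -0.0432 to 0.0088, NOTCH2 from -0.0017 to 0.1333 and NOTCH1 from -0.0965 to 0.0417. Without siRNA.1 replicate 2, NOTCH2 differed between the siRNAs by 0.13 (adjusted p = 0.0475 from edgeR). The count of Notch genes that differed between the siRNAs, 2, was 1 with each limma setting and between 1 and 3 without a library. limma moved other counts as well. Between the siRNAs it called 607, 834 and 614 of all genes at pseudocounts of 0.1, 1 and 0.01, against 2603, and 1, 3 and 1 of the other pathway genes, against 10. With siRNA.1 it called 19 and 18 other pathway genes at pseudocounts of 0.1 and 0.01, against 31. The cause was not tested. Without a library, the count of all genes that differed between the siRNAs ranged from 1906 to 2696, and that of other pathway genes from 8 to 10. Replicate numbers gave no sign of pairing, since same-numbered libraries deviated together with correlations between -0.19 and 0.11, and 1 of 9 was over 0.1. With the replicate number as a block, 6215 genes passed with siRNA.1, 6358 with siRNA.2 and 2342 between the siRNAs, and the block changed no call of a Notch gene. Depth limits HEY1 and LINC00885, whose highest counts in a library were 11 and 12.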
